A study of Mus musculus with 12 samples.

Results

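The Slc25 family of mitochondrial carriers was examined in mouse kidney RNA. Its members were taken by name, as every protein-coding gene whose symbol is Slc25a followed by a number, and 47 genes of the 54532 in the tables met this rule (22046 of those 54532 are protein-coding). Kidney RNA was sequenced from 12 C57BL/6 mice in 4 groups of 3: β-catenin knockout mice after unilateral ureteral obstruction (UUO, a permanent tie of the left ureter), wild-type mice after UUO, CD44 knockout mice after unilateral ischemia-reperfusion injury (UIRI, a passing clamp on the left renal pedicle with later removal of the other kidney), and wild-type mice after UIRI. All 12 kidneys were therefore injured, and no uninjured kidney was analysed here. The β-catenin knockout mice carried floxed β-catenin and a Cre driven by the kidney-specific cadherin (Ksp) promoter, which acts in distal tubules, connecting tubules, collecting ducts and part of the proximal tubules. The labels call the controls wild type and name no group with Ksp-Cre alone. Per the study's methods, C57BL/6 mice were bought as young adult males, and UIRI kidneys were taken on the day after the other kidney was removed. The study does not mention CD44 mice and says that the sequencing data were used before. Whether the sequenced UIRI mice followed this course is therefore not given. How CD44 was deleted, the age of the knockout mice and the time after UUO are not given in the sources used here.

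Slc25 carriers are small proteins that cross the inner mitochondrial membrane several times and exchange 1 solute for another, among them ADP for ATP, citrate, malate, aspartate, carnitine esters, glutathione and iron. The inner membrane is otherwise closed to such solutes, so that oxidative phosphorylation, fatty acid oxidation and the urea cycle all run through these carriers. In the kidney the proximal tubule is densely packed with mitochondria and lives mainly on fatty acids, and tubular injury is known to lower this metabolism.

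The value of each gene is FPKM, a fragment count scaled by gene length and library depth, which can be set side by side between genes. Reads assigned to genes ranged from 15940405 to 20737443 per library. Ctnnb1, which encodes β-catenin, was at 84.7, 71.4 and 71.7 FPKM in β-catenin knockout kidneys, against 91.2, 86.7 and 98.5 FPKM in wild-type kidneys after UUO, and the groups did not overlap. Of all genes tested after UUO, 15.9% lay wholly lower in knockout kidneys. After UIRI Ctnnb1 was apart in the other direction. It was at 87.5, 93.5 and 89 FPKM in kidneys labelled CD44 knockout, against 81.8, 69.5 and 79.4 FPKM in wild-type kidneys. Cd44 was at 18.97, 11.97 and 13.9 FPKM in the libraries labelled CD44 knockout, against 19.9, 16.3 and 17.8 FPKM in wild-type kidneys after UIRI. These ranges overlap, so that Cd44 RNA did not separate the libraries labelled CD44 knockout from their controls. Defining proximal tubule markers were present in all 12 libraries, with summed levels from 3453 to 16487 FPKM. Within their groups, β-catenin knockout replicate 3 had the lowest family level and CD44 knockout replicate 2 had both the lowest proximal tubule and the highest macrophage marker sum of the 3 libraries, and counts of calls are given with and without each of them. In whole-kidney RNA, fewer cells of a type and less RNA per cell cannot be told apart.

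The family spanned a wide range of levels. Over the 12 libraries, 7 members averaged at least 50 FPKM, 17 lay between 10 and 50 FPKM, 16 between 1 and 10 FPKM and 7 below 1 FPKM. Slc25a5, the adenine nucleotide translocase that brings ADP in and ATP out in most tissues, was the highest, with a mean of 418 FPKM. It was followed by Slc25a39, a carrier needed for mitochondrial glutathione (149.7 FPKM), Slc25a3, the phosphate carrier (139 FPKM), Slc25a4, the translocase of heart and muscle (117 FPKM), and Slc25a10, the dicarboxylate carrier (71.1 FPKM). The 5 highest members held 57.4 to 63.4% of the family's summed FPKM in β-catenin knockout kidneys and 53.8 to 57.98% in wild-type kidneys after UUO. After UIRI they held 64.4 to 68.4% in kidneys labelled CD44 knockout and 63.4 to 65.8% in wild-type kidneys. At the other end, Slc25a54 was read 5 times in all 12 libraries together, Slc25a41 12 times, Slc25a31 (the translocase of the germ line) 32 times and Slc25a2 (a second ornithine carrier) 47 times. These 4 and Slc25a18, a glutamate carrier with 7 to 22 reads per library, stayed under the mean of 0.5 FPKM that a gene needed to be tested. The other 42 members were tested in both comparisons. Nearest above this limit after UUO was Slc25a43, with 0.502 ± 0.279 FPKM in β-catenin knockout kidneys against 0.562 ± 0.202 FPKM in wild-type kidneys (SD, n = 3 each), and nearest below it was Slc25a18, with 0.2904 ± 0.0647 FPKM in β-catenin knockout kidneys against 0.3601 ± 0.0764 FPKM in wild-type kidneys (SD, n = 3 each).

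**Figure D1:**
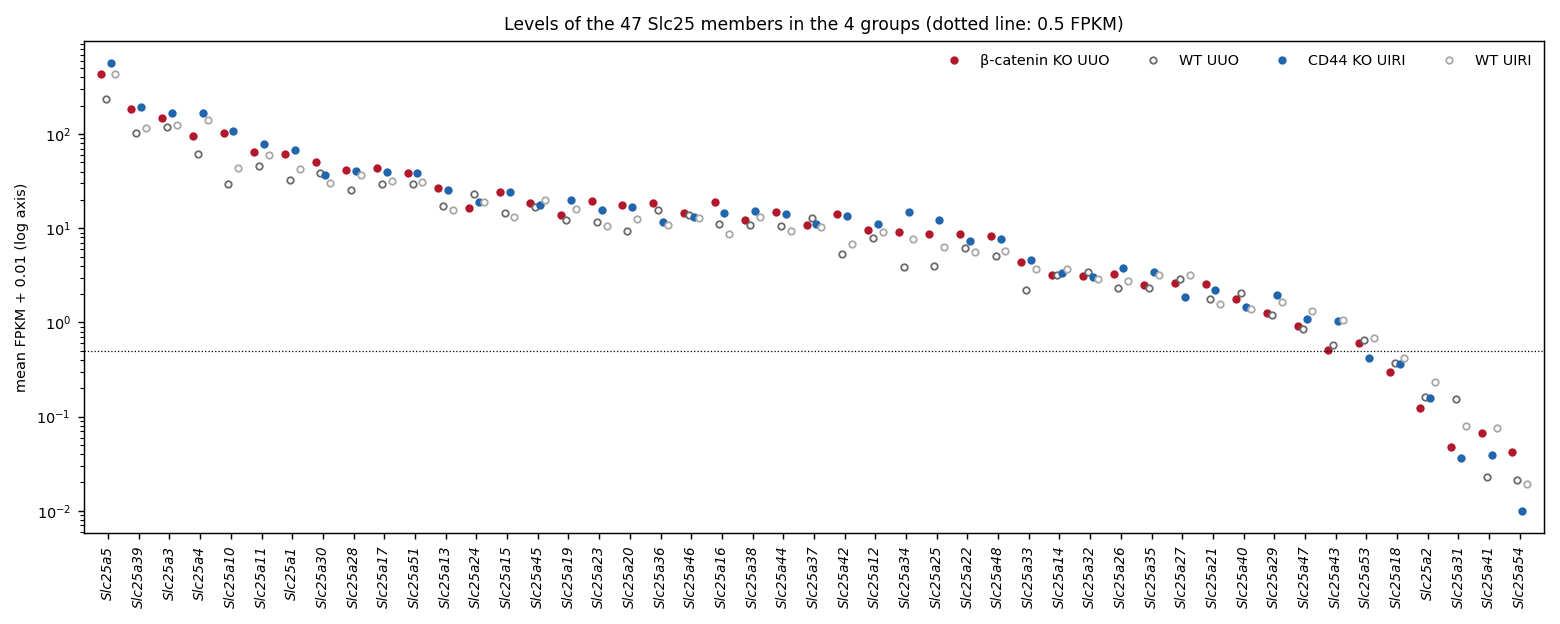
Mean FPKM of the 47 Slc25 members in each of the 4 groups, on a log axis after adding 0.01 FPKM so that listed zeros can be drawn (filled points, knockout groups; open points, wild-type groups; dotted line, 0.5 FPKM). Members run from Slc25a5 at the left to Slc25a54 at the right, and the filled points lie above the open points of the same injury for most members above 10 FPKM.

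The first comparison set β-catenin knockout against wild-type kidneys after UUO. Of the 42 members tested, 15 were higher in β-catenin knockout kidneys (35.7% of them), 0 were lower and 27 missed the threshold (limma on log2(FPKM + 1), Benjamini-Hochberg adjustment over 16166 genes, adjusted p under 0.05). Over all genes tested, 6.21% were called higher and 4.36% lower. At an unadjusted p under 0.05, 26 members were higher and 1 was lower, where 17% of all genes were higher and 12.9% lower, and limma's voom on recovered reads called 13 higher and none lower, where it called 5.67% of all genes higher. The log2 fold change was positive for 35 members (27 with TPM, 31 with voom) and negative for 7, with a median of 0.37, against 0.0096 over all genes tested. Of all 16166 genes, 8258 were positive. TPM and voom moved the median of all genes to −0.19 and −0.12. The 3 values of the knockout group lay wholly above those of the wild-type group for 26 members and wholly below for 2, Slc25a24 and Slc25a40, where 19.6% and 15.9% of all genes did so. Summed over the 47 members, the family was at 1579 ± 242 FPKM in β-catenin knockout kidneys and 989.7 ± 35.4 FPKM in wild-type kidneys (SD, n = 3 each), a ratio of 1.60 (two-sided exact permutation p = 0.1, which is the lowest that 3 against 3 can give). With every library rescaled to the same total (TPM) the ratio was 1.36.

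The number of calls rested on single libraries. Without β-catenin knockout replicate 3, whose family total of 1307 FPKM was the lowest of its group, 19 members were called higher and 1 lower, with Slc25a11, Slc25a24, Slc25a26, Slc25a39 and Slc25a51 added to the 15. Without knockout replicate 1 the calls that remained were Slc25a10, Slc25a13 and Slc25a42, and without knockout replicate 2 they were Slc25a10 and Slc25a42. Without wild-type replicate 1 they were Slc25a10, Slc25a16 and Slc25a42, without wild-type replicate 3 these and Slc25a13 and Slc25a34, and without wild-type replicate 2 none was left. The median log2 fold change of the members stayed between 0.36 and 0.44 in these 6 fits. Under TPM scaling, which moved the median of all genes to −0.19, 7 members were called higher, and 578 of all genes. The members' median was then 0.44 above that of all genes, as against 0.36 above it with FPKM as deposited.

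**Figure D2:**
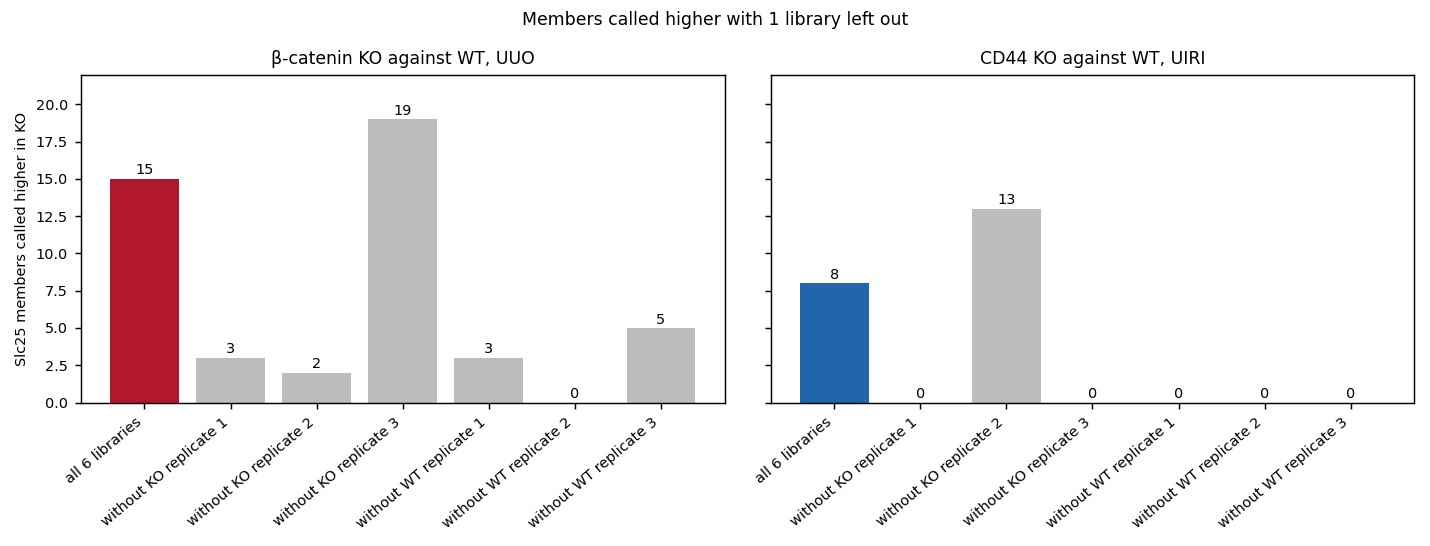
Number of Slc25 members called higher in the knockout group by limma with all 6 libraries of a comparison (coloured bar) and with each library left out in turn (grey bars). After UUO the count lies between 0 and 19, and after UIRI it is 0 except without CD44 knockout replicate 2, when it is 13.

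Among the di- and tricarboxylate carriers 2 of 4 were called higher after UUO, where 6.21% of all genes tested were. Slc25a10 (ENSMUSG00000025792, chromosome 11, 120491840 to 120499187 on GRCm38), which exchanges malate or succinate for phosphate, had 136, 111 and 61.7 FPKM in β-catenin knockout kidneys, against 29.7, 28.03 and 29.96 FPKM in wild-type kidneys (log2 fold change 1.71, standard error 0.27, adjusted p = 0.0154 from limma, 95% interval 1.07 to 2.34). Every knockout kidney was above every wild-type kidney and knockout replicate 3 was the lowest of its group. Slc25a10 was the fourth highest member in knockout kidneys and the ninth in wild-type kidneys. Slc25a1, the citrate carrier that exports citrate for fatty acid synthesis, had 75.9, 66.5 and 43.01 FPKM in β-catenin knockout kidneys, against 35.7, 33.5 and 29.3 FPKM in wild-type kidneys (log2 fold change 0.86, standard error 0.21, adjusted p = 0.0476 from limma). Slc25a11, the oxoglutarate carrier of the malate-aspartate shuttle, had 75.4, 66.9 and 53.6 FPKM in knockout kidneys and 49.8, 47.4 and 41.3 FPKM in wild-type kidneys, which did not overlap but did not pass (log2 fold change 0.48, adjusted p = 0.0893). Slc25a21, which carries oxoadipate from lysine breakdown, differed by 0.36 on the log2 scale (adjusted p = 0.152).

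Of the adenine nucleotide and phosphate carriers 3 of the 6 tested were called higher (6.21% of all genes tested). Slc25a5 had 409, 550.3 and 340.3 FPKM in β-catenin knockout kidneys, against 219, 261 and 236 FPKM in wild-type kidneys (log2 fold change 0.83, standard error 0.20, adjusted p = 0.0451 from limma). Slc25a4 had 103, 106 and 78.3 FPKM in β-catenin knockout kidneys, against 66.2, 62.97 and 56.9 FPKM in wild-type kidneys (log2 fold change 0.61, standard error 0.15, adjusted p = 0.04805 from limma). Slc25a25, a calcium-regulated carrier that exchanges ATP-Mg for phosphate, had 10.4, 9.96 and 5.91 FPKM in β-catenin knockout kidneys, against 3.81, 3.76 and 4.21 FPKM in wild-type kidneys (log2 fold change 0.95, standard error 0.20, adjusted p = 0.0281 from limma). In all 3 genes the groups did not overlap. The ratio of Slc25a5 to Slc25a4 was 4.498 ± 0.616 in β-catenin knockout kidneys and 3.87 ± 0.479 in wild-type kidneys (SD, n = 3 each, exact permutation test, two-sided, p = 0.3). Slc25a3 had 151, 149.7 and 139 FPKM in knockout kidneys and 109, 129 and 117 FPKM in wild-type kidneys and did not pass (log2 fold change 0.31, adjusted p = 0.149). Neither of the tested paralogs of Slc25a25 passed. Slc25a23 differed by 0.72 on the log2 scale (adjusted p = 0.05296) and Slc25a24 by −0.48 (adjusted p = 0.101). Slc25a24 had 16.8, 12.9 and 19.7 FPKM in knockout kidneys and 24.7, 23.4 and 20.96 FPKM in wild-type kidneys, and without knockout replicate 3 it was the 1 member called lower.

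Amino acid carriers had 3 of 7 tested members called higher (6.21% of all genes tested), all 3 also called after UIRI. Slc25a13 (citrin), which sends aspartate out of mitochondria in exchange for glutamate, had 26.2, 28.6 and 26.4 FPKM in β-catenin knockout kidneys, against 17.6, 16.4 and 18.2 FPKM in wild-type kidneys (log2 fold change 0.61, standard error 0.10, adjusted p = 0.0166 from limma). Its paralog Slc25a12 (aralar), which does the same exchange, did not pass (log2 fold change 0.25, adjusted p = 0.126). The ratio of Slc25a13 to Slc25a12 was 2.84 ± 0.201 in β-catenin knockout kidneys and 2.22 ± 0.182 in wild-type kidneys (SD, n = 3 each, two-sided exact permutation p = 0.1, again the lowest possible). Slc25a15, which brings ornithine into mitochondria for the urea cycle, had 27.1, 25.9 and 19.7 FPKM in β-catenin knockout kidneys, against 11.5, 15.9 and 15.9 FPKM in wild-type kidneys (log2 fold change 0.71, standard error 0.17, adjusted p = 0.0454 from limma). Slc25a44, a carrier of branched-chain amino acids, had 16.3, 14.8 and 14.03 FPKM in β-catenin knockout kidneys, against 10.5, 9.43 and 11.7 FPKM in wild-type kidneys (log2 fold change 0.48, standard error 0.12, adjusted p = 0.0464 from limma). All 7 had positive log2 fold changes, from 0.02 for Slc25a29, a carrier of basic amino acids, to 0.71 for Slc25a15. Slc25a29 was negative with TPM and voom, and Slc25a38, at 0.16, was negative with TPM.

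Slc25a20, the carnitine-acylcarnitine carrier through which long-chain fatty acids enter the matrix, had 18.1, 22.3 and 12.7 FPKM in β-catenin knockout kidneys, against 9.95, 7.94 and 10.2 FPKM in wild-type kidneys (log2 fold change 0.82, standard error 0.21, adjusted p = 0.0478 from limma). The groups did not overlap, but knockout replicate 3 lay closer to the wild-type kidneys than to knockout replicate 2. Of the cofactor carriers 3 of 9 were called higher (6.21% of all genes tested). Slc25a42, which brings coenzyme A into the matrix, had 16.7, 15.8 and 10.3 FPKM in β-catenin knockout kidneys, against 5.12, 4.7997 and 5.87 FPKM in wild-type kidneys (log2 fold change 1.26, standard error 0.18, adjusted p = 0.0132 from limma), and its call was kept in 12 of 13 alternatives, the exception being the fit without wild-type replicate 2 (adjusted p = 0.0587). Slc25a16, whose yeast counterpart is needed for mitochondrial coenzyme A, had 19.1, 21.2 and 16.8 FPKM in β-catenin knockout kidneys, against 11.7, 10.4 and 11.2 FPKM in wild-type kidneys (log2 fold change 0.72, standard error 0.12, adjusted p = 0.0161 from limma). Slc25a17, a carrier of peroxisomes that takes up coenzyme A and other nucleotide cofactors, had 41.8, 48.5 and 41.1 FPKM in β-catenin knockout kidneys, against 25.8, 29.3 and 32.6 FPKM in wild-type kidneys (log2 fold change 0.57, standard error 0.13, adjusted p = 0.0372 from limma). Slc25a39 narrowly missed the threshold after UUO with 224, 204 and 131 FPKM in knockout kidneys and 91.9, 116 and 103 FPKM in wild-type kidneys (log2 fold change 0.81, adjusted p = 0.058998), and so did Slc25a51, the NAD carrier (log2 fold change 0.37, adjusted p = 0.0553). The log2 fold change was −0.14 for Slc25a40, the paralog of Slc25a39, and −0.12 for Slc25a32, a carrier of folate and FAD.

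Mitoferrins bring iron into mitochondria for heme and iron-sulfur clusters. Mitoferrin 2, Slc25a28, had 39.2, 47.9 and 36.9 FPKM in β-catenin knockout kidneys, against 25.5, 26.1 and 25.8 FPKM in wild-type kidneys (log2 fold change 0.65, standard error 0.13, adjusted p = 0.0236 from limma). Its paralog Slc25a37, best known from red cell precursors, differed by −0.20 on the log2 scale (adjusted p = 0.502). Members with no substrate assigned here included Slc25a34, with 10.5, 10.4 and 6.28 FPKM in β-catenin knockout kidneys, against 3.86, 2.88 and 4.83 FPKM in wild-type kidneys (log2 fold change 1.04, standard error 0.22, adjusted p = 0.03099 from limma), and Slc25a48, with 8.82, 9.07 and 6.72 FPKM in β-catenin knockout kidneys, against 4.92, 5.74 and 4.71 FPKM in wild-type kidneys (log2 fold change 0.58, standard error 0.14, adjusted p = 0.0418 from limma). The other 5 tested members of that group lay between −0.07 and 0.13 in log2 fold change. None of the 3 carriers related to uncoupling proteins passed, nor did the pyrimidine nucleotide carriers Slc25a33 and Slc25a36 or Slc25a46, a member of the outer membrane. Slc25a30, an uncoupling protein-like carrier first described in kidney, had 47.2, 51.2 and 53.2 FPKM in knockout kidneys and 41.6, 36.7 and 38.1 FPKM in wild-type kidneys (log2 fold change 0.37, adjusted p = 0.0727), without overlap.

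**Figure D3:**
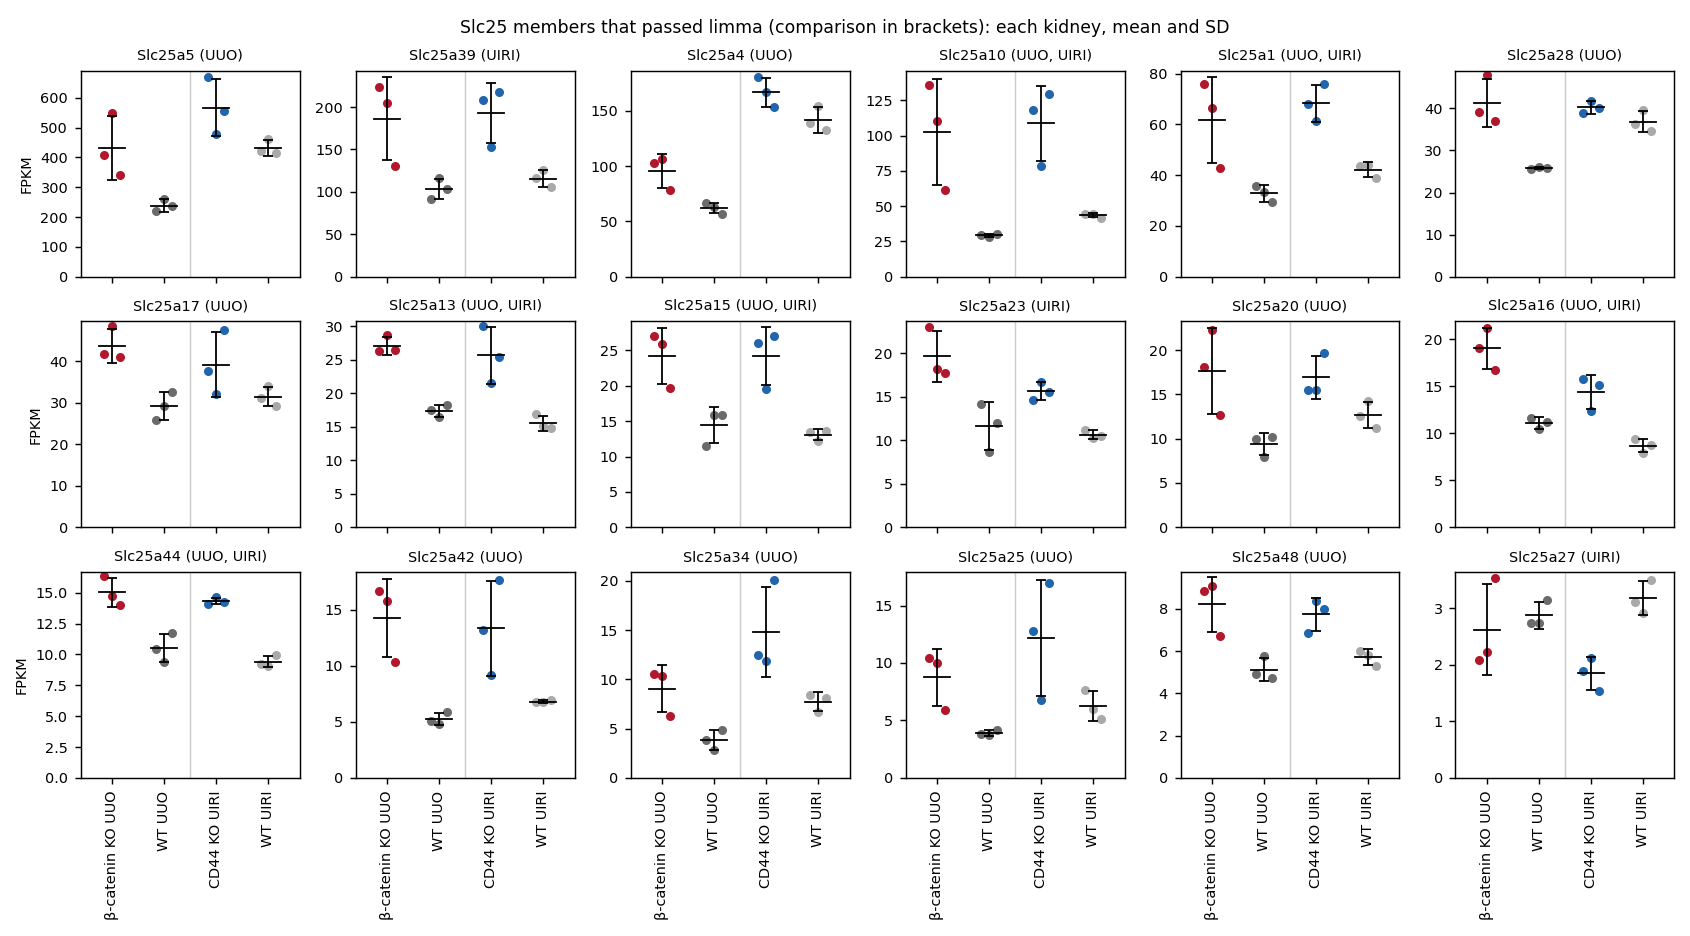
FPKM of the 18 Slc25 members that passed limma in at least 1 comparison (named in brackets), in each of the 12 kidneys, with group mean and SD (n = 3 each); every axis starts at 0. Slc25a10 shows the largest fold difference, with knockout kidneys from 61.7 to 136 FPKM after UUO, against 28.03 to 29.96 FPKM in wild-type kidneys.

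Promoters of 36 of the 47 members were found in RefSeq on GRCm38.p6, as 250 bases before and 50 bases after each start site. They were searched on both strands for the letters CTTTGAT, the site of the TCF/LEF factors that β-catenin binds, and for sites of factors known for mitochondrial genes: CCGGAAG (Ets factors such as GABPA), TCAAGGTCA (ERR), TGACGTCA (CREB), the NRF1 palindrome and the PPAR-RXR element. The ERR and PPAR patterns end in the same 6 letters. The TCF/LEF letters were in promoters of 3 of 36 members (Slc25a22, Slc25a28 and Slc25a43), against 4.29% of all 27025 genes with a promoter. The Ets letters were in those of 7 members, against 9.93% of genes, and 4 of the 7 were called higher after UUO (Slc25a4, Slc25a17, Slc25a20 and Slc25a25). Of all 36 members with a promoter, 14 were called higher after UUO. Slc25a54, among the 7, was not tested, and a link between the letters and the calls was not tested. The CREB letters were in promoters of Slc25a25 and Slc25a36, against 2.03% of genes, and the NRF1, ERR and PPAR letters were in none, against 1.07%, 0.466% and 0.115%. A match says only that the letters are present. Printed here are the promoters of the member with the largest change, Slc25a10 (chr11:120491587-120491886, plus strand), which holds none of these letters, of Slc25a28 (chr19:43674832-43675131, minus strand), the called member with the TCF/LEF letters, and of Slc25a20 (chr9:108661886-108662185, plus strand) with the Ets letters. A pair of start sites of Slc25a25 follows, 1 with the CREB letters (chr2:32424017-32424316, minus strand) and 1 with the Ets letters (chr2:32451421-32451720, minus strand). Each runs 5′ to 3′ on the strand of its gene, and capitals mark the match, which for Slc25a28 lies on the opposite strand and reads ATCAAAG.
Slc25a10: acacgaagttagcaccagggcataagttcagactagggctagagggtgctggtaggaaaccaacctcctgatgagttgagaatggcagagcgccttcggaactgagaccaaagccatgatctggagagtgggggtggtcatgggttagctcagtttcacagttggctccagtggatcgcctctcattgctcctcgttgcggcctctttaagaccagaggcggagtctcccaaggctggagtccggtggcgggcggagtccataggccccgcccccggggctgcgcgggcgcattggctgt
Slc25a28: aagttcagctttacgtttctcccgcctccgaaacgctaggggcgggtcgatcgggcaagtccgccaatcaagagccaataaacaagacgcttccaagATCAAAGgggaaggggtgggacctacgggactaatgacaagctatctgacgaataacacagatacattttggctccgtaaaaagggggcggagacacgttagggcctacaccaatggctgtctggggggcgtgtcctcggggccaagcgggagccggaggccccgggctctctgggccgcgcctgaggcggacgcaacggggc
Slc25a20: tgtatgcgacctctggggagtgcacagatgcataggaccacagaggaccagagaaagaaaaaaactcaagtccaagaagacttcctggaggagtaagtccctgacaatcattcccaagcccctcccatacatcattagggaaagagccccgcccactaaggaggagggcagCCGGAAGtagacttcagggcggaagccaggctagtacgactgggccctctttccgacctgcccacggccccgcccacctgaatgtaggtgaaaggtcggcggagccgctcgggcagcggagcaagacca
Slc25a25, CREB letters: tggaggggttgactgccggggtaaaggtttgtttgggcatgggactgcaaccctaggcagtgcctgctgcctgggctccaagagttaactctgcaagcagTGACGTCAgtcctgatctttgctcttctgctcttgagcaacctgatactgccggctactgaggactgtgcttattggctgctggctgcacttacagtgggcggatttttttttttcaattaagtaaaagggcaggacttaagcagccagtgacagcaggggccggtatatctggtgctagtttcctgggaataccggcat
Slc25a25, Ets letters: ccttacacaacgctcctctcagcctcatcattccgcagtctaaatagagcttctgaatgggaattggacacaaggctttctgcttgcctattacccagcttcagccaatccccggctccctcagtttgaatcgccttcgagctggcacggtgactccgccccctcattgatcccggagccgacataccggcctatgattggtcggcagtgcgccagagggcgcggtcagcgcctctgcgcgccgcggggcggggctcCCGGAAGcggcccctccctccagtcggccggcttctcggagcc

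The second comparison set kidneys labelled CD44 knockout against wild-type kidneys after UIRI. Of the 42 members tested, 8 were higher in the CD44 knockout group (19.0% of them), 1 was lower and 33 did not pass (limma over 16113 genes). Over all genes tested, 4.02% were called higher and 2.19% lower. At an unadjusted p under 0.05, 22 members were higher and 1 was lower, where 15.8% of all genes were higher and 11.2% lower, and voom called 9 higher and 1 lower, where it called 3.66% of all genes higher. The log2 fold change was positive for 35 members (29 with TPM or voom) and negative for 7, with a median of 0.28, against 0.00081 over all genes. Of all 16113 genes, 8086 were positive. TPM and voom moved the median of all genes to −0.12 and −0.14. The values of the CD44 knockout group lay wholly above those of the wild-type group for 21 members and wholly below for 2, Slc25a27 and Slc25a45, where 19.1% and 14.5% of all genes did so. The family sum was 1817 ± 203 FPKM in kidneys labelled CD44 knockout and 1332 ± 68.01 FPKM in wild-type kidneys (SD, n = 3 each), a ratio of 1.36, and 1.24 as TPM (two-sided exact permutation p = 0.1 for both).

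Here too the number of calls rested on single libraries. Leaving out CD44 knockout replicate 1 or 3, or any of the 3 wild-type libraries, left none of the 9 calls, and over all genes between 1 and 10 calls were then made in either direction. Without CD44 knockout replicate 2, all 9 were kept and 5 were added, Slc25a3, Slc25a25, Slc25a26, Slc25a34 and Slc25a42. Over all genes, 1417 were then called higher, against 648 with all 6 libraries. The median log2 fold change of the members stayed between 0.26 and 0.31 in these 6 fits. Under TPM scaling, which moved the median of all genes to −0.12, 3 members were called higher (Slc25a1, Slc25a10 and Slc25a15) and Slc25a27 was called lower. Of all genes, 220 were called higher with TPM.

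Slc25a10 again had the largest difference of the family after UIRI, with 118, 78.7 and 129.6 FPKM in kidneys labelled CD44 knockout, against 44.3, 44.3 and 41.9 FPKM in wild-type kidneys (log2 fold change 1.27, standard error 0.18, adjusted p = 0.0267 from limma, 95% interval 0.83 to 1.71). Slc25a1 had 67.9, 61.2 and 75.8 FPKM in kidneys labelled CD44 knockout, against 43.7, 44.1 and 38.7 FPKM in wild-type kidneys (log2 fold change 0.68, standard error 0.11, adjusted p = 0.0289 from limma). In both the lowest value of the CD44 knockout group was that of replicate 2 and still lay above every wild-type kidney. Slc25a11 had 90.3, 66.3 and 79.6 FPKM in the CD44 knockout group and 52.6, 68.98 and 57.7 FPKM in wild-type kidneys, which overlapped (log2 fold change 0.39, adjusted p = 0.155). The amino acid carriers called were the same 3 genes as after UUO. Slc25a15 had 26.1, 19.5 and 26.99 FPKM in kidneys labelled CD44 knockout, against 13.4, 12.2 and 13.7 FPKM in wild-type kidneys (log2 fold change 0.83, standard error 0.13, adjusted p = 0.0298 from limma). Slc25a13 had 29.97, 21.6 and 25.4 FPKM in kidneys labelled CD44 knockout, against 16.8, 15.1 and 14.8 FPKM in wild-type kidneys (log2 fold change 0.68, standard error 0.13, adjusted p = 0.0374 from limma). Slc25a44 had 14.1, 14.6 and 14.3 FPKM in kidneys labelled CD44 knockout, against 9.24, 9.08 and 9.93 FPKM in wild-type kidneys (log2 fold change 0.56, standard error 0.07, adjusted p = 0.0267 from limma). Slc25a44 had the narrowest spread of these, with the CD44 knockout group at 14.3 ± 0.278 FPKM in CD44 knockout kidneys against 9.42 ± 0.451 FPKM in wild-type kidneys (SD, n = 3 each) in wild-type kidneys. The ratio of Slc25a13 to Slc25a12 was 2.33 ± 0.488 in kidneys labelled CD44 knockout and 1.71 ± 0.122 in wild-type kidneys (SD, n = 3 each, exact permutation test, two-sided, p = 0.1).

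Of the cofactor carriers 2 of 9 were called higher after UIRI, where 4.02% of all genes tested were. Slc25a39 had 208, 153 and 218 FPKM in kidneys labelled CD44 knockout, against 116, 125 and 106 FPKM in wild-type kidneys (log2 fold change 0.72, standard error 0.16, adjusted p = 0.0491 from limma). Slc25a16 had 15.8, 12.3 and 15.1 FPKM in kidneys labelled CD44 knockout, against 9.36, 7.92 and 8.79 FPKM in wild-type kidneys (log2 fold change 0.66, standard error 0.11, adjusted p = 0.0321 from limma). Both groups of values were apart, with replicate 2 the lowest of the CD44 knockout group in each gene. Slc25a42 had 13.2, 9.198 and 17.7 FPKM in the CD44 knockout group and 6.75, 6.76 and 6.95 FPKM in wild-type kidneys and missed the threshold (log2 fold change 0.83, adjusted p = 0.0611), as did Slc25a34 with 12.5, 11.8 and 20.04 FPKM in the CD44 knockout group and 8.43, 6.68 and 8.14 FPKM in wild-type kidneys (log2 fold change 0.82, adjusted p = 0.0603). Slc25a17 had 37.8, 32.2 and 47.6 FPKM in the CD44 knockout group and 31.2, 34.01 and 29.3 FPKM in wild-type kidneys, which overlapped (adjusted p = 0.261), and Slc25a20 had 15.5, 15.5 and 19.7 FPKM in the CD44 knockout group and 12.6, 14.2 and 11.2 FPKM in wild-type kidneys (log2 fold change 0.39, adjusted p = 0.111).

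In the adenine nucleotide and phosphate group, Slc25a23, a carrier of ATP-Mg and phosphate, rose after UIRI, with 14.6, 16.7 and 15.6 FPKM in kidneys labelled CD44 knockout, against 11.2, 10.2 and 10.5 FPKM in wild-type kidneys (log2 fold change 0.51, standard error 0.08, adjusted p = 0.0305 from limma). The 3 most abundant members of the group did not pass. Slc25a5 had 669, 479 and 555 FPKM in the CD44 knockout group and 420.3, 463 and 415 FPKM in wild-type kidneys (log2 fold change 0.38, adjusted p = 0.174). Slc25a3 had 182, 148 and 168 FPKM in the CD44 knockout group and 119, 139 and 116 FPKM in wild-type kidneys (log2 fold change 0.41, adjusted p = 0.0925). Slc25a4 had 180.1, 167 and 154 FPKM in the CD44 knockout group and 139, 155 and 132 FPKM in wild-type kidneys (log2 fold change 0.23, adjusted p = 0.2299). The groups were apart for Slc25a5 and Slc25a3, and for Slc25a4 the lowest kidney of the CD44 knockout group was under the highest wild-type kidney. Slc25a25 had 12.8, 6.82 and 16.9 FPKM in the CD44 knockout group and 7.69, 6.03 and 5.104 FPKM in wild-type kidneys, which overlapped through replicate 2 (adjusted p = 0.152).

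Slc25a27 was the 1 member that fell. This uncoupling protein-like carrier, best known from brain, had 1.89, 2.13 and 1.53 FPKM in kidneys labelled CD44 knockout, against 3.12, 2.91 and 3.51 FPKM in wild-type kidneys (log2 fold change −0.55, standard error 0.12, adjusted p = 0.0442 from limma). After UUO it had 2.08, 2.24 and 3.55 FPKM in knockout kidneys and 2.74, 2.74 and 3.16 FPKM in wild-type kidneys, with overlap (log2 fold change −0.12, adjusted p = 0.673). Slc25a28 had 38.9, 41.8 and 40.01 FPKM in the CD44 knockout group and 36.4, 39.5 and 34.7 FPKM in wild-type kidneys after UIRI, with overlap (log2 fold change 0.12, adjusted p = 0.387), and Slc25a48 had 6.86, 8.35 and 7.999 FPKM in the CD44 knockout group and 6.02, 5.798 and 5.302 FPKM in wild-type kidneys, without overlap (log2 fold change 0.38, adjusted p = 0.0661). Slc25a30 had 35.9, 36.5 and 37.3 FPKM in the CD44 knockout group and 29.3, 29.3 and 33.3 FPKM in wild-type kidneys, also without overlap (log2 fold change 0.25, adjusted p = 0.115).

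**Figure D4:**
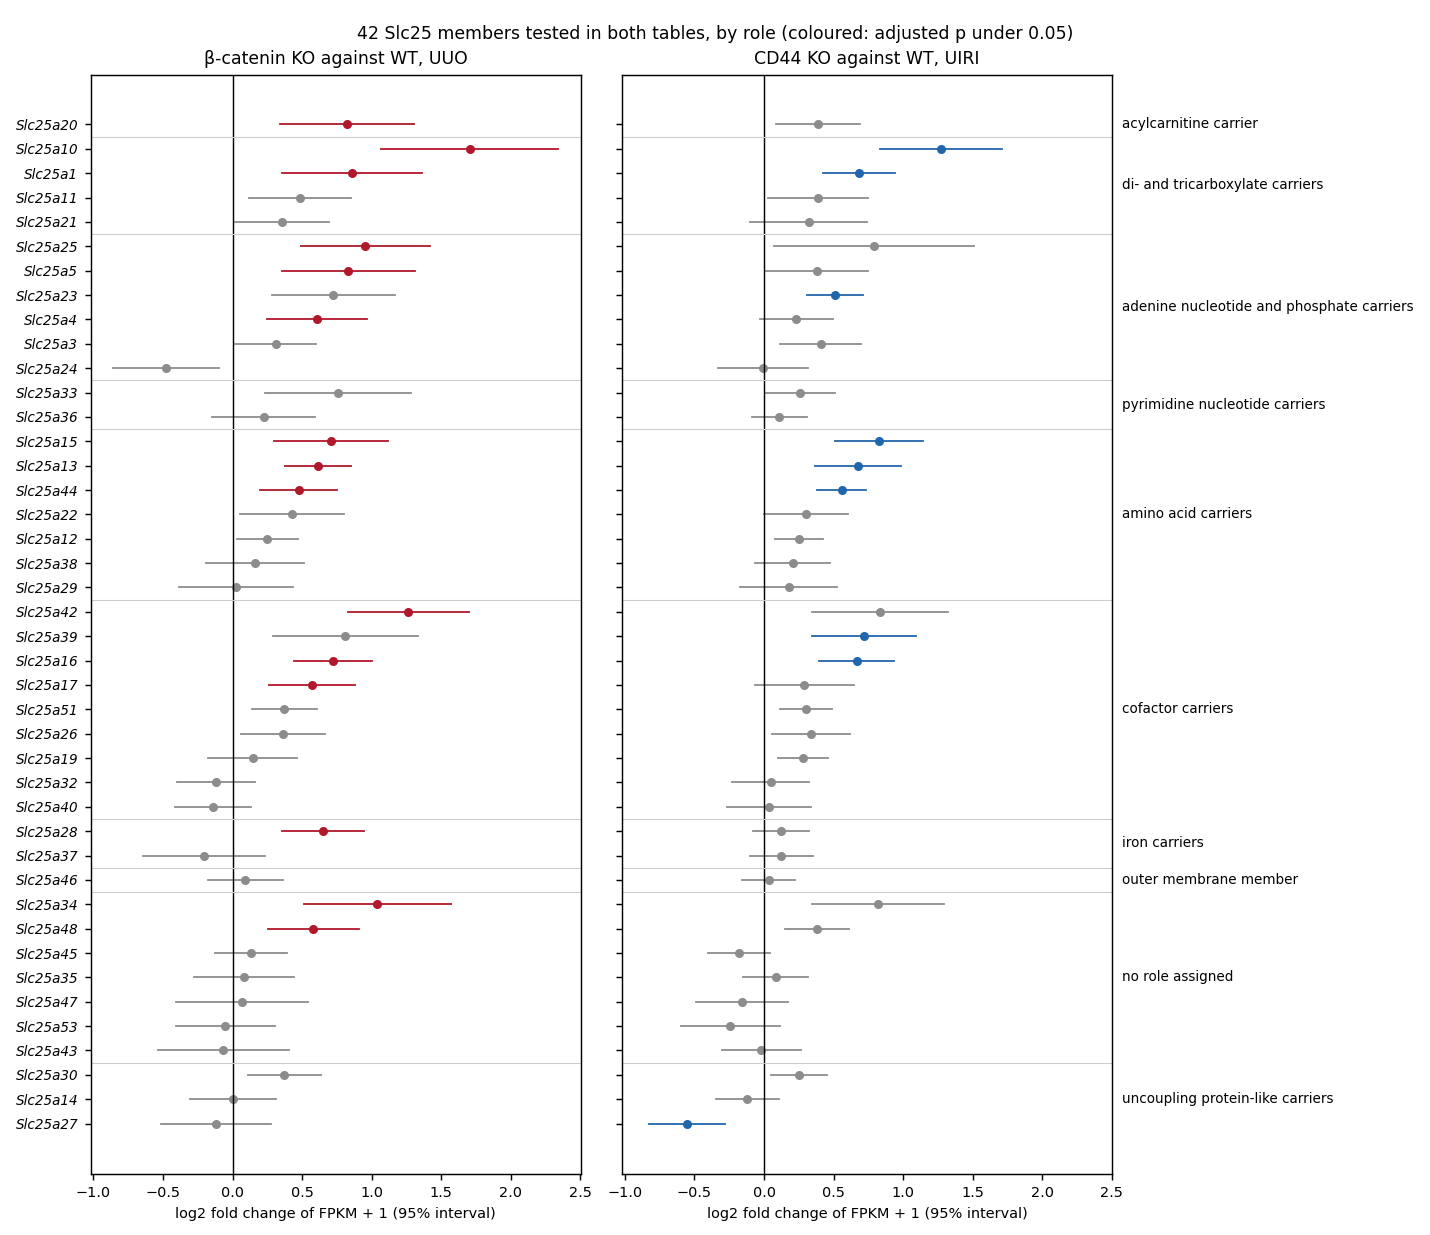
Log2 fold change of FPKM + 1 with its 95% interval from limma for the 42 tested Slc25 members, grouped by role, for β-catenin knockout against wild-type kidneys after UUO (left) and CD44 knockout against wild-type kidneys after UIRI (right); coloured points have an adjusted p under 0.05. Values run from −0.48 (Slc25a24) to 1.71 (Slc25a10) after UUO and from −0.55 (Slc25a27) to 1.27 (Slc25a10) after UIRI.

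The 2 comparisons share no libraries. Of the 42 members, 6 were called higher in both (Slc25a1, Slc25a10, Slc25a13, Slc25a15, Slc25a16 and Slc25a44), which is 40% of the 15 called after UUO and 75% of the 8 called after UIRI; of all genes tested in both, 1.52% were called higher in both. The log2 fold change was positive in both for 32 members, negative in both for 4 and of opposite sign for 6, where 35.4% of all genes were positive in both. In 20 members the knockout kidneys lay wholly above the wild-type kidneys in both comparisons, where 9.3% of all genes tested in both did so. The 2 sets of log2 fold changes had a Pearson correlation of 0.85 (Spearman 0.85) across the 42 members, and 0.59 across all 15489 genes, as a description across genes, which are not independent replicates. The log2 fold change was higher after UUO than after UIRI in 29 members (23 with TPM), and in 7834 of all 16193 genes. However, no member's difference between the comparisons passed limma's interaction test over all 12 libraries (lowest adjusted p = 0.198, voom likewise none), where 0.00618% of all genes passed. At an unadjusted p under 0.05 there were 2 members, both higher after UUO, which is 4.76% of the 42, where 6.98% of all genes were higher and 6.61% lower (13.6% in either direction). The 2 were Slc25a28, whose log2 fold change was higher after UUO by 0.53 on the log2 scale (95% interval 0.22 to 0.84), and Slc25a45, at 0.13 after UUO and −0.18 after UIRI, a difference of 0.32 (95% interval 0.02 to 0.62). With TPM Slc25a45 was negative in both. For Slc25a10 the difference was 0.43 (95% interval −0.35 to 1.22). The 9 members called after UUO and not after UIRI are thus not shown to differ between the 2 models.

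**Figure D5:**
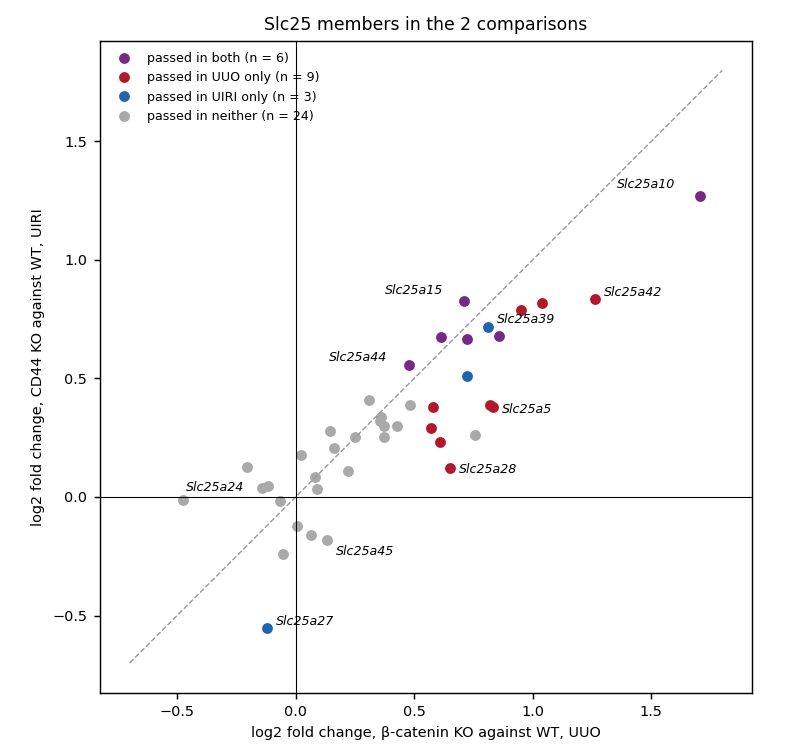
Log2 fold change of each of the 42 tested Slc25 members for β-catenin knockout against wild-type after UUO (horizontal) and CD44 knockout against wild-type after UIRI (vertical), coloured by which comparison it passed; the dashed line marks equal values. Slc25a10 lies at the upper right (1.71 and 1.27) and Slc25a27 lowest (−0.12 and −0.55).

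Levels across the 4 groups can be set side by side only as a description, since the 2 tables were scaled separately. Each injury has its own table, so that injury and table cannot be told apart. The family sum was highest in kidneys labelled CD44 knockout after UIRI (1592 to 1986 FPKM), then in β-catenin knockout kidneys after UUO (1307 to 1769 FPKM), wild-type kidneys after UIRI (1279 to 1409 FPKM) and wild-type kidneys after UUO (960.3 to 1029 FPKM). Neighbours in this order overlapped, except that the 2 wild-type groups did not. As TPM the order was the same. Slc25a4 differed more between the 2 injuries, and so between the 2 tables, than between the genotypes of a table. It was at 95.8 and 62.03 FPKM in β-catenin knockout and wild-type kidneys after UUO, against 167 and 142 FPKM in kidneys labelled CD44 knockout and wild-type kidneys after UIRI. In wild-type kidneys its level after UUO was 0.437 of that after UIRI in FPKM and 0.483 in TPM. Slc25a34 (0.498 and 0.547) and Slc25a5 (0.551 and 0.606) had a low ratio too, while Slc25a36 (1.44 and 1.59) and Slc25a16 (1.28 and 1.41) were among those higher after UUO. Slc25a10 stood at nearly the same mean in the 2 knockout groups, 103 and 109 FPKM.

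By level, calls were more frequent among the more abundant members. The share of all genes called at the same levels was not counted, and log2(FPKM + 1) understates the change of low genes. The pattern is therefore not shown to be particular to the family. Of the 24 members of at least 10 FPKM, 11 were called after UUO and 8 after UIRI. Of the 16 between 1 and 10 FPKM, 4 were called higher after UUO, and after UIRI none was higher and 1, Slc25a27, was lower. Slc25a27 had 119 to 273 reads per library.

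Genes that work with the carriers were counted from lists of the same pathways. Of all genes tested, 6.21% were called higher after UUO and 4.02% after UIRI. Of 6 tested carnitine shuttle enzymes and carriers, 5 were higher after UUO and 2 after UIRI. Slc22a5, which takes carnitine into the cell, was at 74.002 ± 12.1 FPKM in β-catenin knockout kidneys against 36.2 ± 8.66 FPKM in wild-type kidneys, log2 fold change 1.02, adjusted p = 0.0253 after UUO (SD, n = 3 each, limma), and at 57.6 ± 9.25 FPKM in CD44 knockout kidneys against 33.4 ± 4.81 FPKM in wild-type kidneys, log2 fold change 0.77, adjusted p = 0.0431 after UIRI. Crat, carnitine acetyltransferase, was at 25.9 ± 7.11 FPKM in β-catenin knockout kidneys against 13.8 ± 1.06 FPKM in wild-type kidneys, log2 fold change 0.83, adjusted p = 0.0369 after UUO, and at 22.3 ± 2.96 FPKM in CD44 knockout kidneys against 14.3 ± 1.34 FPKM in wild-type kidneys, log2 fold change 0.60, adjusted p = 0.0399 after UIRI. Of 8 tested partner enzymes of the malate-aspartate shuttle and the urea cycle, 3 were higher in each comparison. Asl, argininosuccinate lyase, was at 31.1 ± 5.104 FPKM in β-catenin knockout kidneys against 16.96 ± 0.139 FPKM in wild-type kidneys, log2 fold change 0.83, adjusted p = 0.0161 after UUO, and at 29.9 ± 3.34 FPKM in CD44 knockout kidneys against 17.95 ± 1.94 FPKM in wild-type kidneys, log2 fold change 0.71, adjusted p = 0.0302 after UIRI. Got1, the cytosolic aspartate aminotransferase, was at 49.5 ± 6.65 FPKM in β-catenin knockout kidneys against 31.5 ± 0.658 FPKM in wild-type kidneys, log2 fold change 0.63, adjusted p = 0.0257 after UUO, and Ass1, argininosuccinate synthase, was at 159 ± 52.2 FPKM in CD44 knockout kidneys against 44.8 ± 13.7 FPKM in wild-type kidneys, log2 fold change 1.79, adjusted p = 0.0312 after UIRI. Ass1 also passed after UUO (log2 fold change 1.33, adjusted p = 0.0326, limma), and Got1 did not pass after UIRI (0.36, adjusted p = 0.120). Otc and Cps1, which follow ornithine import in liver, were at or near 0 in every group, the highest mean being 0.0163 FPKM.

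Of 17 other transporters of the mitochondrial membranes, 4 were higher in each comparison (23.5%) and none was lower. Among all genes tested, 6.21% were called higher after UUO and 4.02% after UIRI. Mpc2, a subunit of the pyruvate carrier, was at 24.2 ± 3.54 FPKM in β-catenin knockout kidneys against 14.5 ± 1.01 FPKM in wild-type kidneys, log2 fold change 0.69, adjusted p = 0.0236 after UUO (SD, n = 3 each, limma), and Vdac1, the main channel of the outer membrane, was at 226 ± 25.6 FPKM in β-catenin knockout kidneys against 146 ± 10.7 FPKM in wild-type kidneys, log2 fold change 0.63, adjusted p = 0.0355. Letm1, an ion exchanger of the inner membrane, was at 12.3 ± 1.505 FPKM in CD44 knockout kidneys against 8.32 ± 0.183 FPKM in wild-type kidneys, log2 fold change 0.51, adjusted p = 0.0394 after UIRI, and Sfxn2, a sideroflexin, was at 15.5 ± 1.91 FPKM in CD44 knockout kidneys against 10.5 ± 0.405 FPKM in wild-type kidneys, log2 fold change 0.52, adjusted p = 0.0409. Vdac1 also passed after UIRI (log2 fold change 0.56, adjusted p = 0.0413, limma), and Mpc2 did not (0.10, adjusted p = 0.686). Letm1 (0.46, adjusted p = 0.0399) and Sfxn2 (0.43, adjusted p = 0.0358) also passed after UUO. The TIM22 complex and its chaperones insert carriers into the inner membrane. Of 10 such parts, none was higher after UIRI and 1 was higher after UUO, near the share of all genes. That gene was Timm13, at 53.3 ± 17.2 FPKM in β-catenin knockout kidneys against 25.5 ± 1.56 FPKM in wild-type kidneys, log2 fold change 0.98, adjusted p = 0.0482. Timm13 did not pass after UIRI (log2 fold change 0.14, adjusted p = 0.638, limma). Of the 10 parts, 5 lay wholly above wild type and 0 wholly below after UUO, where 19.6% and 15.9% of all genes did. After UIRI 3 lay wholly above and 1 wholly below, where 19.1% and 14.5% of all genes did. Carriers of the same fold under other names, Ucp2, Mtch1 and Mtch2, had 0 of 3 called in either comparison.

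Cell type markers moved in the same kidneys. For comparison, 6.21% of all genes tested were called higher and 4.36% lower after UUO, and 4.02% and 2.19% after UIRI. Of 15 proximal tubule markers, 12 were called higher in β-catenin knockout kidneys after UUO, with sums of 6431 to 10263 FPKM in β-catenin knockout and 3602 to 6750.4 FPKM in wild-type kidneys. After UIRI 5 of 15 were called higher, with sums of 5643 to 16487 FPKM in the CD44 knockout group and 3453 to 4653 FPKM in wild-type kidneys. The 2 ranges overlapped after UUO. Kap, the kidney androgen-regulated protein, held 53 to 84.3% of this sum in the 12 libraries and did not pass after UUO (log2 fold change 0.40, adjusted p = 0.556). Without it the sums were 2188 to 3023 FPKM in β-catenin knockout kidneys against 949 to 1062 FPKM in wild-type kidneys after UUO, and 1206 to 2812 FPKM in the CD44 knockout group against 738 to 883 FPKM in wild-type kidneys after UIRI. Macrophage and monocyte markers went the other way. Of 12, 11 were lower after UUO (546 to 642 FPKM in knockout and 1108 to 1341 FPKM in wild-type kidneys) and 6 after UIRI (773 to 1381 FPKM in the CD44 knockout group and 2038 to 2119 FPKM in wild-type kidneys). Fibroblast markers had 4 of 9 lower after UUO and 2 of 9 after UIRI, and thick ascending limb markers 2 of 8 higher after UUO and none after UIRI. The share of FPKM in protein-coding genes of the mitochondrial genome was 9.205 ± 0.752% in β-catenin knockout and 7.73 ± 0.163% in wild-type kidneys after UUO, and 6.098 ± 0.582% in the CD44 knockout group and 4.96 ± 0.384% in wild-type kidneys after UIRI (SD, n = 3 each). The part of cell composition in the carriers' differences was not tested. Brown fat and muscle, where Slc25a4 and Slc25a44 are also abundant, left almost no trace: the 7 markers summed to 0.335 to 4.79 FPKM in the 12 libraries, and Myh4 was listed at 0 in all of them.

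Some members share sequence with other genes. Exons of 14 members overlap those of another annotated gene, mostly on the opposite strand, and reads of such pairs cannot be told apart without strand, which the sources used here do not give for the counting. The overlap covers 31.3% of the length of Slc25a35 (with Rangrf), 14.9% of Slc25a33, 8.92% of Slc25a11 and 6.60% of Slc25a10, whose antisense neighbour Gm11788 averaged 1.60 FPKM. The annotated processed copy Slc25a5-ps was at 0.0299 to 0.338 FPKM, and reads that could fit Slc25a5 or a near-identical copy make its level uncertain by an amount that was not measured.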

How the data were processed

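RNA was sequenced from 12 mouse kidneys. The submitters' processing notes name HISAT2 2.0.5 and GRCm38. Per the study's methods, the authors took gene counts from featureCounts 1.5.0-p3, turned them into FPKM and tested groups with DESeq2. The deposited FPKM values are in 2 tables, each with its own wild-type columns, which were given to UUO or UIRI by the knockout beside them. FPKM times gene length gave whole reads for 100% of values (within 0.01 read) once divided by a constant per library. This constant followed the libraries' size factors within a table, so that values already carry a size-factor scaling and no test was run between tables other than the interaction of the 2 contrasts.

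Each knockout was compared with its wild-type group by limma 3.58.1 (R 4.3.3; lmFit, eBayes with a trend, two-sided) on log2(FPKM + 1), which understates the change of low genes, keeping genes whose mean over 6 libraries reached 0.5 FPKM, with Benjamini-Hochberg adjustment over all of them at 0.05. The recovered reads were tested with voom only, and DESeq2 was not run. Single values were compared by exact permutation tests. Each sample was a separate mouse as far as the labels say, and the replicates behind the p-values are these 3 mice per group. In limma the variance of each gene is also drawn toward a trend over all genes tested. No 2 libraries held identical values.

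Alternatives were a pseudocount of 0.1, no filter, a filter at 1 FPKM, rescaling to TPM, limma without a trend, a replicate block, voom on the recovered reads, and leaving out each library. The procedure was tested on simulated data. The members and lists were chosen with earlier results of these data known. Values in each kidney are given for members called in either comparison with all libraries, the most abundant, and those with the smallest p after UIRI; a few others shown so, such as Slc25a24 and Slc25a30, were chosen after their values were seen. The rest are given by counts or single values. Of each outside list at most 2 called genes were picked per comparison, with their values in the other comparison. Exon overlaps came from GENCODE vM21 and promoters from RefSeq (GRCm38.p6). Python 3.11.15, pandas 2.3.3, SciPy 1.17.1, NumPy 2.4.6 and Matplotlib 3.10.9 were used.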

Additional observations from a re-analysis of the deposited data

How the results depend on the processing

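After UUO 15 members were called higher, and the count was 15 with a pseudocount of 0.1, 16 with a filter at 1 FPKM, 13 with voom, 11 without a trend, 7 with FPKM rescaled to TPM and 3 with no filter on low values, where 29604 genes were adjusted over. It ranged from 0 to 19 with a library left out, and from 0 to 1 for members called lower. Over all genes, 1004 were called higher after UUO, 578 with TPM, 280 with no filter and 130 to 1631 with a library left out. After UIRI 8 members were called higher, and the count was 8 with a pseudocount of 0.1 or a filter at 1 FPKM, 9 with voom, 7 without a trend, 3 with TPM and 1 with no filter; it ranged from 0 to 13 with a library left out. Over all genes, 648 were called higher after UIRI, 220 with TPM, 43 with no filter and 0 to 1417 with a library left out. The 1 member called lower after UIRI was not called with no filter (0), and the count was 0 to 1 with a library left out. The number of members whose effects differed between the comparisons was 0 throughout. The members' median log2 fold change after UUO was 0.37, 0.48 with a pseudocount of 0.1, 0.35 with voom and 0.25 with TPM, and after UIRI it was 0.28 and between 0.17 and 0.31. The causes were not tested. No member changed sign, under any alternative, in a comparison that called it. Of the rest, 8 changed sign after UUO with TPM and 4 with voom, and 6 after UIRI with either, 0 to 4 did so with a library left out, and 0 with the other alternatives. Among these was Slc25a28 after UIRI, at −0.0068 with TPM and −0.0076 with voom. Its adjusted p lay between 0.292 and 0.971 over its alternatives.

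Replicate numbers are shared between groups, and the labels do not say whether they pair the mice. Same-numbered knockout and wild-type libraries had correlations of their deviations of 0.080, 0.198 and 0.043 after UUO and −0.143, −0.025 and −0.029 after UIRI. Differently numbered libraries had correlations from −0.157 to 0.082 after UUO and from −0.109 to 0.150 after UIRI. Pairing itself was not tested. With the replicate number as a block, 12 members were called higher and 0 lower after UUO, and 0 higher and 0 lower after UIRI, where the block left no gene called. The members' medians were 0.37 and 0.28, as without the block.

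A member that did not pass is not shown to be unchanged. The 5 lowest members, with 0 to 22 reads per library, were not compared.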
